A study of Mus musculus with 6 samples.

Results

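The 10 genes described here are textbook transcriptional targets of canonical Wnt signalling: Sp5, Axin2, Cdx1, Lef1, Tcf7, Nkd1, T, Rnf43, Dkk1 and Apcdd1. All probes carrying one of these symbols in the platform annotation were taken, which gave 16 probes for 8 of the 10 genes, of 45281 probes and 19057 named genes on the array. No probe was assigned to Tcf7 or T, and these genes were not analysed here. Of the 8 genes with probes, 5 passed the detection filter and were tested (Sp5, Cdx1, Axin2, Nkd1 and Apcdd1), and 3 (Lef1, Rnf43 and Dkk1) were not detected on any array. The samples were mouse embryonic stem (ES) cells grown on mitomycin C-treated mouse embryonic fibroblast feeders in 15% foetal bovine serum with a saturating amount of LIF. The groups were 3 arrays of control-transfected cells and 3 arrays of cells transfected with shRNA against Chd4 (shChd4), the ATPase of the NuRD chromatin remodelling complex. In both, pHYPER shRNA vectors were introduced by electroporation, puromycin was started 24 h later, and cells were collected after a further 48 h of selection. The labels give no hairpin sequence, no ES cell line and no removal of feeder cells. The shChd4 samples carry the identifiers Sh-D1, Sh-D3 and Sh-B, and the labels do not say whether these are different hairpins, clones or cultures, so the spread over these arrays may hold differences of any of these kinds.

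Canonical Wnt signalling acts through beta-catenin. Without ligand, a destruction complex built on Axin and APC marks beta-catenin for degradation; when a Wnt binds Frizzled and LRP5 or LRP6, beta-catenin accumulates, enters the nucleus and activates genes through DNA-bound factors of the TCF/LEF family. Many of the resulting targets encode inhibitors of the pathway itself, so they serve both as readouts and as negative feedback. In mouse ES cells the pathway sustains self-renewal, largely by relieving repression by Tcf7l1, and in the gastrulating embryo it drives primitive streak formation and posterior patterning.

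TCF/LEF factors recognise a short core, and the sequence just upstream of the transcription start was available from RefSeq (GRCm38.p6) for 8 of the 10 genes, with Cdx1 and Apcdd1 having no entry. The core was searched as CTTTG followed by any pair of bases drawn from A and T, on both strands, in the 250 bases before each annotated start. The resulting variants share CTTTG, and only 1 of them can match at a given position of a strand. At least 1 match was found in 14.8% of all 32851 windows and at least 2 matches in 1.43%. The windows of Sp5 and Axin2, genes that rose on these arrays, and of Dkk1, which was not detected, are given here, 5′ to 3′ on the strand of the gene, with matches in capitals.
Sp5 (chr2:70474673-70474922, plus strand): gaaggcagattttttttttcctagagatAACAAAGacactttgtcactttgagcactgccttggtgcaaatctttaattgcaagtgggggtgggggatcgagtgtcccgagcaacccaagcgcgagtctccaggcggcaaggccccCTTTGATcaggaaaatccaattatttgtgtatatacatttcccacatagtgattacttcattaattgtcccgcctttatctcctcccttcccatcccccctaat
Axin2 (chr11:108920099-108920348, plus strand): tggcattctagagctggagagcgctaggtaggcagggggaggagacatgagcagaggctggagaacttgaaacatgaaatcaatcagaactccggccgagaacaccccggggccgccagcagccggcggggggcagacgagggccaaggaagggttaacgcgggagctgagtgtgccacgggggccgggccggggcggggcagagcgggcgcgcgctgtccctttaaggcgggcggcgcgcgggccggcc
Dkk1 (chr19:30549497-30549746, minus strand): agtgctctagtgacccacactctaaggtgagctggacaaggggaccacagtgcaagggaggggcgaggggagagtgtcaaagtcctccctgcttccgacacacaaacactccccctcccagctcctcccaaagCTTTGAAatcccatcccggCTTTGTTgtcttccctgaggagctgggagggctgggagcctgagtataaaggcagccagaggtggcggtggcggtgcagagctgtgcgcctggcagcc
The Sp5 window held 2 matches, CTTTGTT on the opposite strand at 222 to 216 bases before the start and CTTTGAT at 104 to 98 bases before it. The Dkk1 window also held 2, CTTTGAA at 117 to 111 and CTTTGTT at 98 to 92 bases before the start, and the Axin2 window held 0. Of the other genes, T held 1 match, 1 of the 4 Lef1 windows held 1, and the windows of Nkd1, Rnf43 and Tcf7 held 0. A match describes the letters in this window and is not a bound site; sites further away were not searched.

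Across the 6 arrays, 34.9% to 38.7% of all probes were detected, and a probe counts as detected on an array at a detection p-value under 0.05. Arrays of one group correlated with r of at least 0.983 over the 9808 genes tested, and arrays of different groups with r of at most 0.95; these correlations are across genes, which are not independent replicates. Chd4 read 10.13, 10.13 and 10.17 in controls and 8.06, 7.91 and 8.33 after Chd4 shRNA (normalised log2 intensity), so the targeted transcript was lower on each shChd4 array. The titles place each group on a BeadChip of its own, and a chip effect cannot be told apart from the group difference. Whether the arrays stem from separate cultures is not stated, so p-values reflect the spread between these arrays alone, and that spread may be technical. ES cell identity was checked with 14 markers, all of them detected on every array, but fibroblast markers were also present and were higher after Chd4 shRNA, as described below with the genes they touch. In bulk RNA, a change in the number of cells of one type cannot be told apart from a change in RNA per cell.

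Of the 5 Wnt target genes tested, 3 rose after Chd4 shRNA and 0 fell. Sp5 rose 8.10-fold, Cdx1 5.85-fold and Axin2 1.85-fold. Nkd1 and Apcdd1 did not pass the threshold, a limma adjusted p under 0.05 over all 9808 genes. By the same threshold 38.1% of all genes tested passed, 19.9% higher and 18.2% lower after Chd4 shRNA. Probe by probe, 4 of the 6 detected probes of these genes rose (1 of Sp5, 2 of Cdx1 and 1 of Axin2) and 0 fell, against 17.5% and 18.5% of the 14610 detected named probes. The median log2 fold change of the 5 genes was 0.89 against -0.05 for all genes tested. That median is the Axin2 value, and Nkd1 lies below it, so setting Nkd1 to its lower bound could not change it. Nkd1, and 2 of the 6 detected probes (the Nkd1 probe and the dimmer Cdx1 probe), had passed the detection filter through the shChd4 arrays alone, so their direction is not independent of that filter. The 3 genes that rose were each detected on all control arrays with the probe tested.

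**Figure D1:**
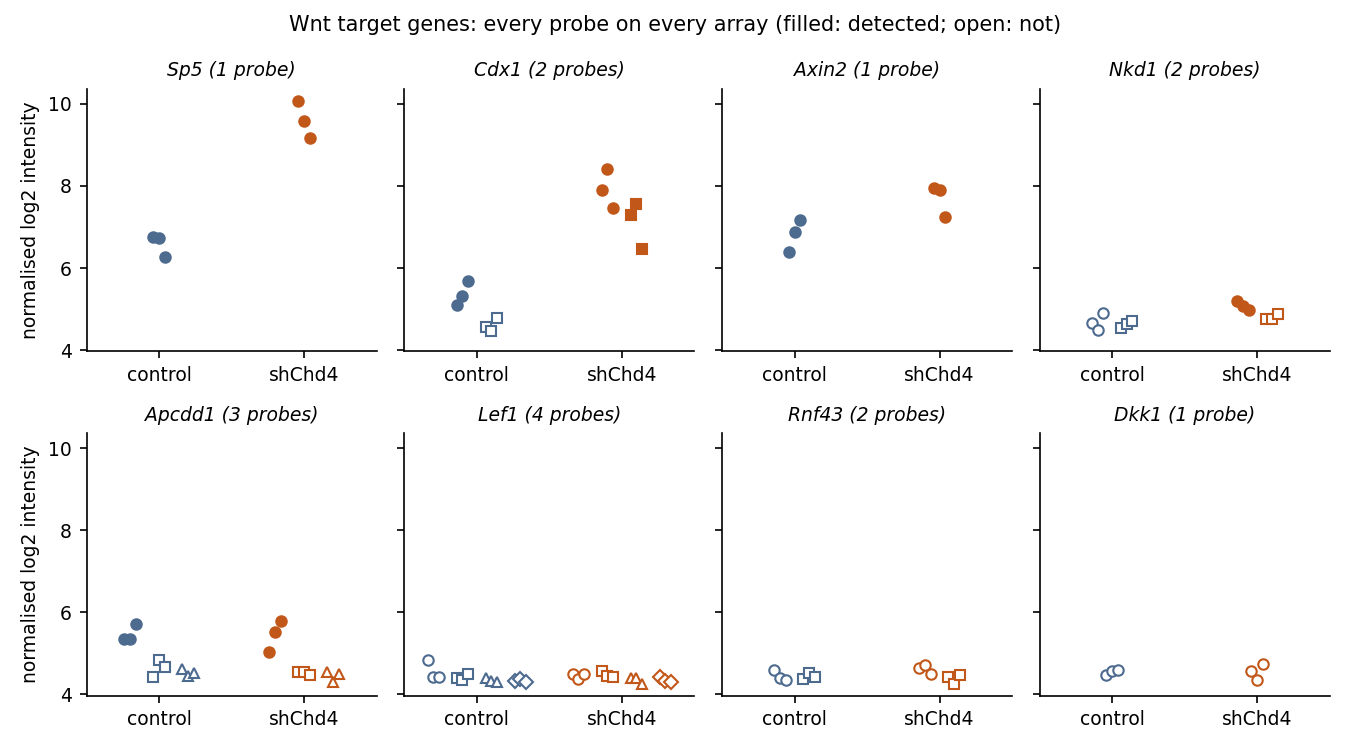
Normalised log2 intensity of every probe of the 8 Wnt target genes with probes, on 3 control arrays (blue) and 3 shChd4 arrays (orange); marker shapes separate the probes of a gene, filled markers are detected and open ones are not. Sp5 and the brighter Cdx1 probe separate widely between groups, Axin2 narrowly, and all probes of Lef1, Rnf43 and Dkk1 stay undetected at or below 4.85.

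Sp5 and Cdx1 were the only transcription factor genes of the 10 that could be tested, and both rose. Sp5 encodes a zinc finger factor of the Sp family that is induced directly by beta-catenin. Its only probe read 6.75, 6.74 and 6.26 in controls and 10.07, 9.58 and 9.16 after Chd4 shRNA, in log2 units. The lowest shChd4 array thus lay well above the highest control array, and the probe was detected on all 6. The log2 fold change was 3.02 ± 0.23 (moderated SE, n = 3 per group; adjusted p by limma = 6.03e-06), which ranked 57 among the rises of the 9808 genes tested. Without background correction the change was 2.20, and it passed in each of the 16 alternatives.

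Cdx1 encodes a caudal-type homeobox factor that responds to Wnt and retinoic acid and patterns the posterior body axis. The brighter of its probes was detected on every array, at 5.10, 5.33 and 5.69 in controls and at 7.89, 8.41 and 7.46 after Chd4 shRNA. The control values were close to the detection limit, since the lowest signal of any detected probe ranged from 4.86 to 5.03 over the arrays. The groups did not overlap, which held upwards for 25% of all genes tested. The log2 fold change was 2.55 ± 0.24 (moderated SE, adjusted p by limma = 2.05e-05), rank 101 among the rises. A second probe, not detected on any control array, read 4.57, 4.46 and 4.79 in controls and 7.30, 7.57 and 6.47 after Chd4 shRNA. On background-corrected values, with the controls held at the detection limit, this probe was at least 4.29-fold higher after Chd4 shRNA. It had entered the test through the shChd4 arrays alone. Because the control signal was near background, the size of the Cdx1 change depended on the background step: without correction it was 1.32 (limma adjusted p = 0.000227; 9.22e-07 to 0.00108 over its alternatives).

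Lef1, a TCF/LEF factor that is itself a Wnt target, had 4 probes and none was detected on any array. Their log2 intensities ran from 4.26 to 4.85, and the smallest detection p-value was 0.0855. No fold change is given for Lef1, because no probe reached the detection threshold in either group. A level below detection on this array does not show that the transcript was absent.

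Of the feedback inhibitors of the pathway that were tested, Axin2 passed the threshold and Nkd1 and Apcdd1 did not. Differences between these genes were not tested. Axin2, a scaffold of the beta-catenin destruction complex and the most widely used readout of the pathway, had 1 probe, detected on all arrays. It read 6.39, 6.87 and 7.17 in controls and 7.94, 7.91 and 7.23 after Chd4 shRNA. The groups did not overlap, but the gap between control replicate 3 and shChd4 replicate 3 was narrow; groups did not overlap upwards for 25% of all genes tested. The log2 fold change was 0.89 ± 0.24 (moderated SE; adjusted p by limma = 0.0139), rank 1052 among the rises. The call was lost without control replicate 1 (0.68, adjusted p = 0.0538), without shChd4 replicate 1 (0.76, adjusted p = 0.0646) and without shChd4 replicate 2 (0.78, adjusted p = 0.0523). It was also lost with no detection filter (adjusted p = 0.0576), and over all 16 alternatives the change ran from 0.55, without background correction, to 1.12 with limma adjusted p from 0.00524 to 0.0646.

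Nkd1 encodes a Dishevelled-binding antagonist. Its brighter probe lay below detection in all controls (4.67, 4.48 and 4.90) and was detected on all shChd4 arrays (5.20, 5.07 and 4.98). The groups did not overlap, which held upwards for 25% of all genes tested. With the controls held at the detection limit, however, the difference is bounded only at 1.05-fold or more. The fitted log2 fold change was 0.40 ± 0.16 (SE; unadjusted 95% interval 0.04 to 0.76; limma adjusted p = 0.0732), and it did not pass. It passed without control replicate 3 (0.51, adjusted p = 0.0477) and with array weights (0.45, adjusted p = 0.0493), among 14 alternatives whose adjusted p ran from 0.0477 to 0.253. Without background correction the change was 0.13. The second Nkd1 probe was not detected on any array.

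Apcdd1 encodes a membrane glycoprotein that inhibits the pathway at the receptor. Its brightest probe was detected on all arrays, at 5.34, 5.36 and 5.71 in controls and at 5.03, 5.52 and 5.80 after Chd4 shRNA. The groups overlapped, and the log2 fold change was -0.02 ± 0.21 (moderated SE; adjusted p by limma = 0.957). The 95% interval of the difference ran from -0.48 to 0.44, so changes of that size are not distinguished from 0 at this precision. The other Apcdd1 probes were not detected on any array.

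Rnf43, a transmembrane ubiquitin ligase that removes Frizzled from the cell surface, and Dkk1, a secreted inhibitor that binds LRP5 and LRP6, were below detection throughout. The 2 Rnf43 probes read between 4.26 and 4.72 and the single Dkk1 probe between 4.36 and 4.75, with smallest detection p-values of 0.0994 and 0.0972.

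**Figure D2:**
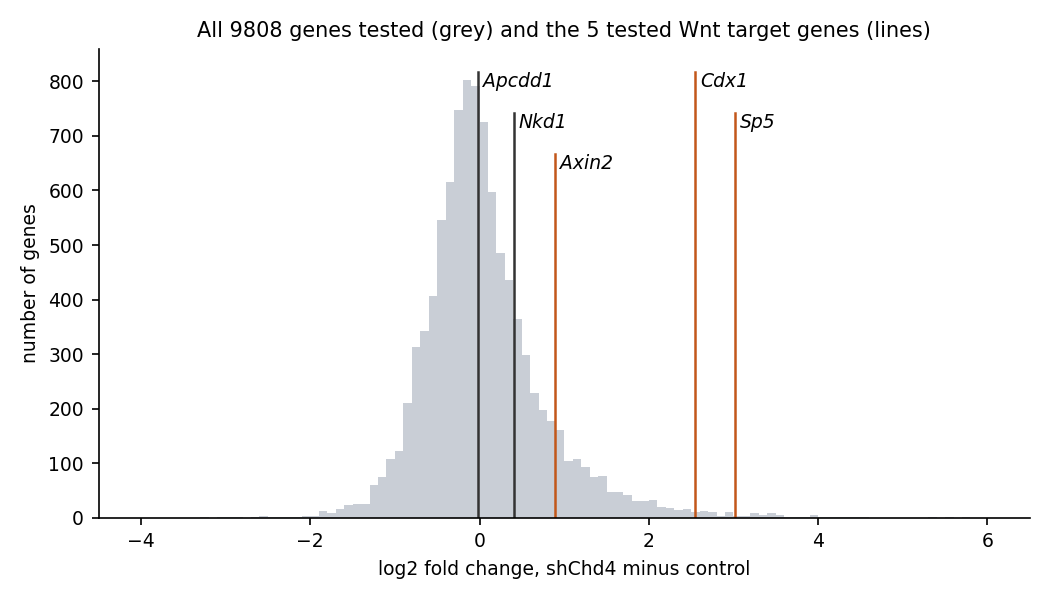
Histogram of the log2 fold change (shChd4 minus control) of all 9808 genes tested, with lines at the 5 tested Wnt target genes; orange lines passed the test and dark ones did not. Sp5 (3.02) and Cdx1 (2.55) lie in the far upper tail, Axin2 (0.89) on its shoulder, and Nkd1 (0.40) and Apcdd1 (-0.02) within the bulk.

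The 3 genes that rose did not share 1 order over the control arrays. Axin2 and Cdx1 were lowest on control replicate 1 and highest on control replicate 3, whereas Sp5 was lowest on control replicate 3. Control replicate 1 was the lowest for 52.5% of the 1947 genes that rose, and control replicate 3 for 18.7%. Among the shChd4 arrays Sp5, Cdx1 and Axin2 were each lowest on replicate 3. Of the 1947 genes that rose, 20.8% were lowest on that array and 56.4% on replicate 2. On the brightest Chd4 probe the residual signal was highest on replicate 3, at 8.33 against 8.06 and 7.91. A dimmer Chd4 probe was also highest there, at 6.09 against 5.81 and 5.94. Another Chd4 probe was lowest there, at 4.98 against 5.49 and 5.00. With 3 arrays no relation between these values can be tested.

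Fibroblast markers moved with the same contrast. Of 22 markers, 16 were tested, 14 rose and 0 fell, with a median log2 fold change of 2.58, and 4 of the 16 were not detected on any control array. Their summed normalised intensity ranged from 1737 to 2424 on the control arrays and from 12005 to 16667 on the shChd4 arrays. Col3a1, Col5a2, Postn, S100a4 and Fap did not pass the detection filter, and Fbn1 had no named probe. The mean log2 intensity of the tested markers was 5.71, 6.15 and 6.13 in controls and 8.62, 8.35 and 8.68 after Chd4 shRNA. This mean was lowest on control replicate 1, as were Axin2, Cdx1 and 52.5% of the 1947 genes that rose. It was highest on shChd4 replicate 3, as were 40.9% of those genes. Sp5, Cdx1 and Axin2 were lowest of their group there, as were 20.8%. With 3 arrays per group these orders were not tested. Of the 14 ES cell markers 9 fell and 0 rose, and their summed intensity went from 60955 to 63730 in controls to 46454 to 52485 after Chd4 shRNA. The part of these markers in the Wnt target gene changes was not tested.

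**Figure D3:**
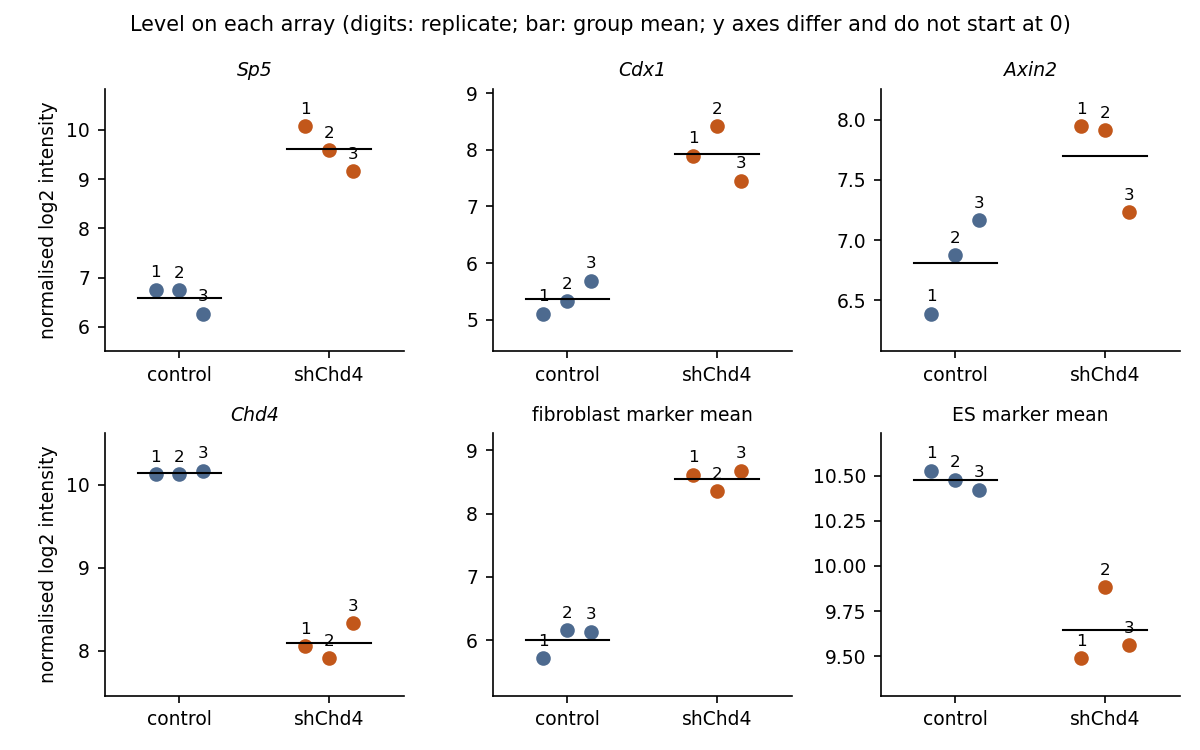
Normalised log2 intensity on each array for the 3 Wnt target genes that rose, for Chd4, and for the means of 16 fibroblast and 14 ES cell markers; digits give the replicate number, which only names an array, bars are group means, and the y axes differ. Sp5, Cdx1 and Axin2 are each lowest of the shChd4 arrays on replicate 3, where the fibroblast mean is highest at 8.68, close to 8.62 on replicate 1.

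Smaller marker lists are given as counts, beside the 19.9% of all genes tested that rose and the 18.2% that fell. Of 9 macrophage markers 4 were tested and 3 rose, each of them undetected on all control arrays. Endoderm markers had 6 rises (Gata6, Sox7, Dab2, Col4a1, Col4a2 and Pdgfra) and 1 fall (Lama1) among 7 tested of 12. Sox7 and Pdgfra were undetected on all control arrays and were tested through the shChd4 arrays alone. Of the 5 endoderm markers detected on a control array 4 rose. Gata4, Sox17, Afp, Ttr and Lamb1 did not pass the detection filter. Trophectoderm markers had 1 rise and 1 fall among 6 tested, and neural markers 1 rise and 0 falls among 3. The trophectoderm gene Cdx2, a homologue of Cdx1, did not pass.

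By pattern over the 6 arrays, the tested gene most like Sp5 was Wwtr1 (Pearson r = 0.999), which encodes the transcriptional co-activator TAZ of the Hippo pathway. Wwtr1 read 6.57, 6.51 and 6.34 in controls and 7.83, 7.59 and 7.40 after Chd4 shRNA. Epha2, an ephrin receptor gene, and the interferon-inducible gene Ifi27l2a followed (r of 0.996 for both). In all, 483 genes had an r over 0.95 with Sp5; the 6 arrays form separated groups, so the likeness is a description only.

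The rest of the pathway was described with 127 other genes in 10 lists, of which 70 passed the detection filter, 23 rose and 6 fell. Of the 23, Wnt5a and Snai2 were not detected on any control array. The median log2 fold change of the 70 tested genes was 0.11, against -0.05 for all genes tested, of which 19.9% rose and 18.2% fell. The same shares stand beside the counts of each list below.

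Of 19 Wnt ligand genes 6 were tested, 4 rose and 0 fell. One of the 4, Wnt5a, was tested through the shChd4 arrays alone, and of the 5 detected on a control array 3 rose. Wnt7b rose from 6.54, 6.67 and 6.75 to 8.29, 9.39 and 8.41, a log2 fold change of 2.04 ± 0.26 (moderated SE; adjusted p by limma = 0.000133). Wnt5a, a ligand best known for signalling without beta-catenin and expressed in mesenchyme, lay below detection in all controls. On background-corrected values its rise was bounded at 3.14-fold or more, and without background correction its log2 fold change was 0.69. A second Wnt5a probe, detected on 2 shChd4 arrays and not on any control array, differed by only 0.27. A further Wnt5a probe was not detected on any array. Wnt8a, a ligand of the early embryo that was detected on 1 control array, rose by 1.39, and Wnt6 by 1.25. Wnt3, a ligand required for the primitive streak, did not pass the detection filter. Wls, which carries acylated Wnt proteins to the cell surface, rose by 1.94 ± 0.23 (moderated SE; adjusted p by limma = 8.17e-05), while Porcn, the acyltransferase, did not pass. Second detected probes of Wnt7b and Wnt6 gave differences of 0.77 and 1.13, and 3 further detected Wls probes of 1.47, 1.69 and 0.49. The Wls probe at 0.49 did not pass (limma adjusted p over all detected probes = 0.182).

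Receptors changed in both directions. Of 15 receptor genes 9 were tested, 3 rose and 1 fell. Fzd10 rose from 7.73, 7.95 and 8.29 to 9.22, 9.18 and 9.35, a log2 fold change of 1.26 ± 0.18 (moderated SE; adjusted p by limma = 0.000265). Fzd5, another Frizzled receptor gene, fell from 9.77, 9.97 and 9.99 to 8.63, 8.42 and 9.09, a log2 fold change of -1.20 ± 0.19 (moderated SE; adjusted p by limma = 0.000648). Neither set of groups overlapped, which held upwards for 25% and downwards for 25.3% of all genes tested. Another Fzd10 probe, detected on 2 control arrays, differed by 0.96. A dimmer one that was not detected on any control was at least 1.21-fold higher on background-corrected values. The other detected Fzd5 probes differed by -1.75 and -0.49. Fzd3 rose by 0.83 and Ror2, a receptor for Wnt5a, by 0.81, but a second detected Fzd3 probe differed by 0.28 and did not pass. The co-receptor genes Lrp5 and Lrp6 did not pass. Of 8 genes of the R-spondin axis, which potentiates Wnt by clearing Rnf43 and Znrf3, only Rspo3 was tested and it rose by 1.26, detected on 1 control array; Znrf3 and the Lgr receptor genes did not pass the detection filter.

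Secreted inhibitors other than Dkk1 had 1 rise and 2 falls among 7 tested of 15. Sfrp1, a soluble Frizzled-related inhibitor, fell from 7.67, 8.08 and 7.77 to 6.22, 6.45 and 6.46, a log2 fold change of -1.46 ± 0.17 (moderated SE; adjusted p by limma = 6.91e-05). Notum, which removes the acyl group from Wnt proteins and is itself a Wnt target in several tissues, read 8.55, 8.13 and 8.14 in controls and 6.32, 6.88 and 7.96 after Chd4 shRNA. Notum fell by 1.22 on the log2 scale (limma adjusted p = 0.0139), with shChd4 replicate 3 close to the controls. The Notum call was lost without shChd4 replicate 1 (-0.86, adjusted p = 0.0592) and without shChd4 replicate 2 (-1.13, adjusted p = 0.0502), in a range of 0.000479 to 0.0765 over its alternatives. The other detected Notum probes differed by -0.61 and -0.56 and did not pass. Dkk3, a Dickkopf relative, rose by 1.70, and by 1.62 on its second detected probe.

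Among cytoplasmic components 3 of 13 tested rose (23.1%, near the 19.9% of all genes tested) and 0 fell (18.2% of all genes tested). Ctnnb1, which encodes beta-catenin, read 10.82, 10.48 and 10.36 in controls and 10.43, 10.17 and 10.40 after Chd4 shRNA, with overlapping groups and a log2 fold change of -0.22 ± 0.17 (moderated SE; adjusted p by limma = 0.340). Other Ctnnb1 probes detected on all 6 arrays differed by -0.24, -0.63 and -0.02. None of them passed (limma adjusted p over all detected probes 0.271, 0.0588 and 0.953). Beta-catenin activity is set mainly at the protein level, which these arrays do not measure. Csnk1e, a casein kinase that acts with Dishevelled, rose by 0.91, Nkd2, the paralog of Nkd1, by 0.70, and Gsk3b, a kinase of the destruction complex, by 0.64. A second detected Gsk3b probe differed by 0.35 and did not pass. The Gsk3b call was lost without control replicate 1 (0.58, adjusted p = 0.0509), control replicate 2 (0.57, adjusted p = 0.0613) or shChd4 replicate 3 (0.52, adjusted p = 0.0556), in a range of 0.00689 to 0.0613.

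In the nucleus, 2 of 11 tested factors rose and 2 fell, 18.2% each way, near the 19.9% and 18.2% of all genes tested. Tcf7l1, the TCF factor that represses target genes in ES cells, read 10.57, 10.57 and 10.58 in controls and 9.51, 10.19 and 9.37 after Chd4 shRNA. All 3 shChd4 arrays lay below the controls, as for 25.3% of all genes tested. The log2 fold change was -0.89 ± 0.21 (moderated SE, adjusted p by limma = 0.00652). A dimmer Tcf7l1 probe, detected on 3 arrays, differed by -0.36 and did not pass. The Groucho family co-repressor gene Tle4 fell by 0.97 on the log2 scale, and its 2 other detected probes differed by -1.02 and -1.11. Bcl9l, a beta-catenin co-activator, rose by 1.43, although another detected probe differed by -0.43 and did not pass. Tle1 rose by 0.55, a call lost in 6 of 16 alternatives, among them without control replicate 1 (0.52, adjusted p = 0.0941), control replicate 2 (0.50, adjusted p = 0.117), shChd4 replicate 1 (0.38, adjusted p = 0.135) or shChd4 replicate 2 (0.57, adjusted p = 0.0645), in a range of 0.0189 to 0.135. Both other Tle1 probes detected on all 6 arrays, at 0.21 and 0.42, did not pass (limma adjusted p over all detected probes 0.402 and 0.0973).

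Other genes listed as Wnt targets in textbooks had 7 rises and 0 falls among 13 tested of 20, with a median of 0.49, or 0.48 with Snai2, undetected in all controls and tested through the shChd4 arrays alone, at its bound of at least 1.25-fold. Of the 12 detected on a control array 6 rose. Those with the smallest p were Cd44, Ccn4, Jun and Sox9, with log2 fold changes of 3.49, 3.39, 3.11 and 2.06 and limma adjusted p of at most 1.91e-05. Cd44 encodes a hyaluronan receptor and Ccn4 a matricellular protein, and both are also expressed by fibroblasts; Jun is an immediate early gene and Sox9 a lineage factor. Jun was detected on 1 control array, and Ccn4 and Sox9 on 2. Myc, Cdx2, Tbx3, Ascl2, Sp8 and Tnfrsf19 did not pass.

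Tcf7l1-repressed pluripotency genes had 0 rises and 1 fall among 4 tested of 5. Nanog fell by 0.84 on the log2 scale (limma adjusted p = 0.0148), a call lost without control replicate 1 (-0.75, adjusted p = 0.0505), and by 0.56 without shChd4 replicate 3, in a range of adjusted p from 0.00324 to 0.0575. Its second probe, detected on all 6 arrays, read 9.98, 10.16 and 10.38 in controls and 8.96, 9.04 and 7.97 after Chd4 shRNA, and fell by 1.52 on the log2 scale (limma adjusted p over all detected probes = 0.000865). Of 15 primitive streak genes 5 were tested, 1 rose and 0 fell. The one that rose was Snai1, a repressor of epithelial genes that fibroblasts also express, by 1.29 ± 0.21 (moderated SE; adjusted p by limma = 0.000894).

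**Figure D4:**
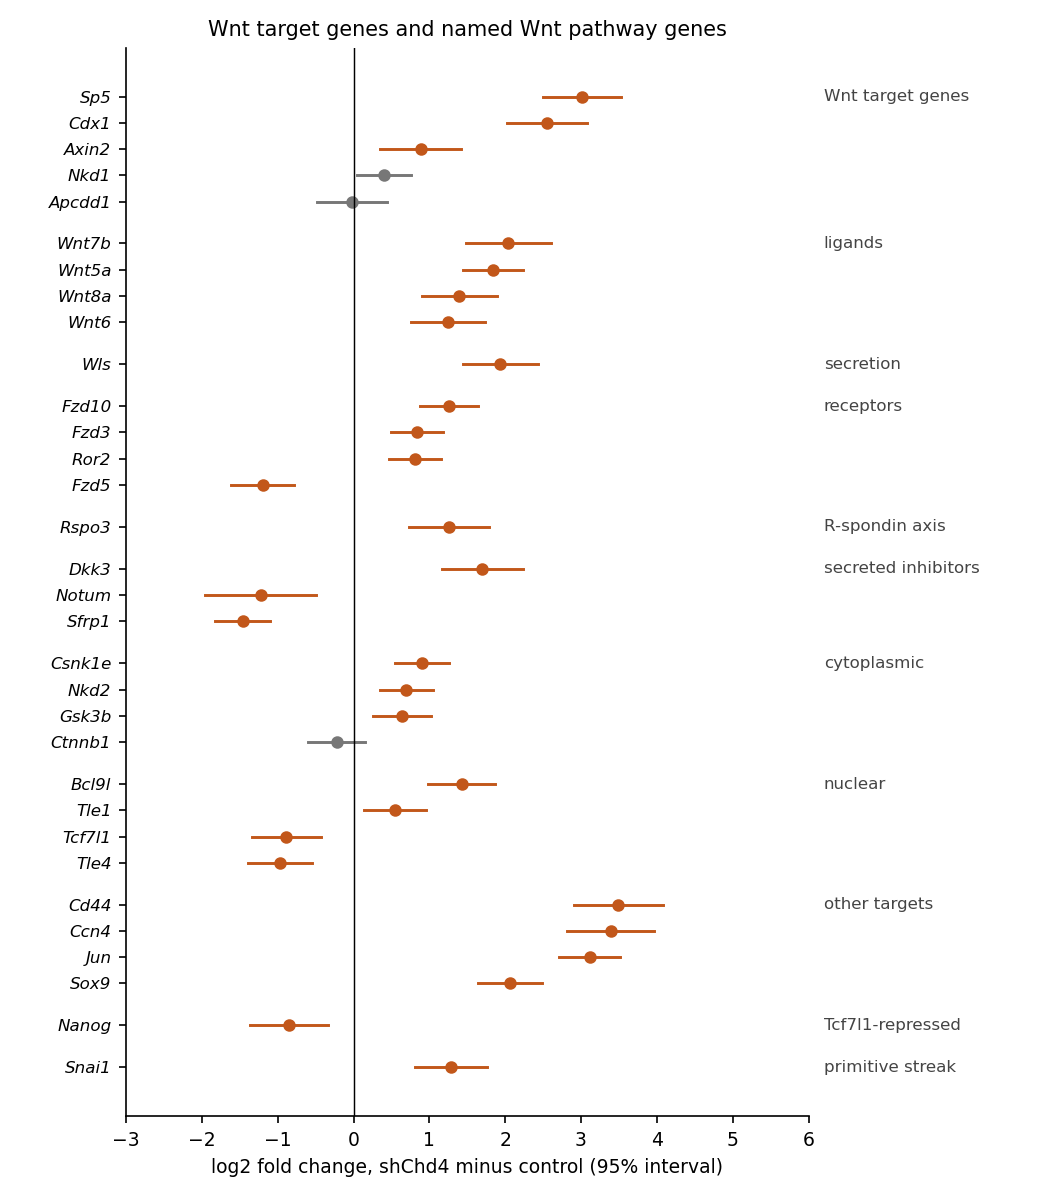
Log2 fold change (shChd4 minus control) with its unadjusted 95% interval for the 5 tested Wnt target genes and the named genes of the other Wnt lists, grouped by role; orange passed the test and grey did not. Sp5 and Cdx1 are the largest of the tested Wnt target genes. The 4 ligand genes shown, which are those that rose, lie to the right of 0. Receptors, secreted inhibitors and nuclear factors fall on both sides. The point for Wnt5a is the fitted value, its bound on background-corrected values being at least 3.14-fold.

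The size of the changes near background depended on the background step, here as for Cdx1. Without background correction the log2 fold changes of Wnt5a, Wnt8a, Wnt6, Rspo3, Bcl9l and Snai1 were 0.69, 0.48, 0.49, 0.43, 0.58 and 0.56. Those of Fzd3, Ror2, Dkk3 and Nkd2 were 0.28, 0.41, 0.90 and 0.31, those of Jun, Sox9 and Ccn4 were 1.52, 0.88 and 1.98, and those of Wls, Sfrp1 and Notum were 1.10, -0.87 and -0.79; each of these calls was kept. With the mean of all detected probes in place of the brightest, the Bcl9l change was 0.50.

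**Figure D5:**
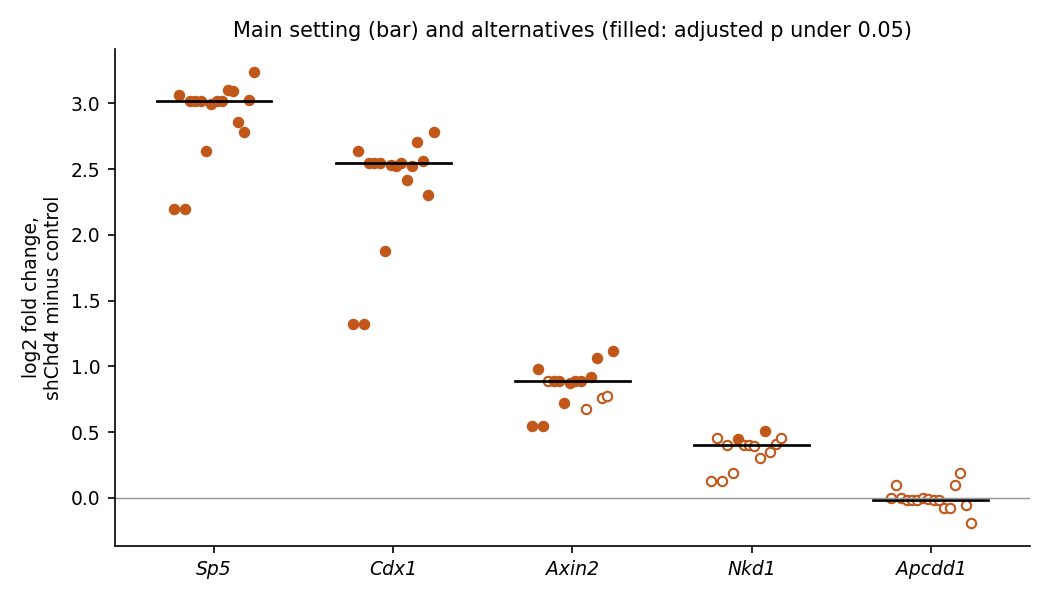
Log2 fold change (shChd4 minus control) of the 5 tested Wnt target genes in the main setting (bar) and in each alternative that gave a value (points; filled passed the test, open did not). Sp5 and Cdx1 pass in all 16 alternatives, Axin2 in 12, and Nkd1 in 2 of 14, while Apcdd1 stays between -0.19 and 0.19 and passes in 0.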

How the data were processed

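Total RNA of 6 samples was amplified to biotin-labelled cRNA and read on Illumina MouseWG-6 BeadChips. Linear intensity values come from the deposited scanner table, which also gives a detection p-value per the file headers; the submitters' processing notes name GenomeStudio. These deposited intensity values showed no background subtraction or scaling between arrays (medians 110.9 to 118.9). The authors' series matrix holds quantile-normalised intensity values and was used only to recompute results.

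The normexp model, with background inferred from detection p-values, was applied with offset 16, and arrays were quantile-normalised and log2-transformed (limma 3.58.1, R 4.3.3). Of the probes, 34885 have 1 gene symbol, 18 several and 10378 none; 34807 symbols were matched through Entrez identifiers to RefSeq (GRCm38.p6, names only). Each gene took its brightest probe, tested if detected (p under 0.05) on at least 3 arrays, which left 9808 of 19057 genes. Groups were compared with limma (lmFit, eBayes), Benjamini-Hochberg over these genes, and log2 fold changes are shChd4 minus control. A second fit took all 14610 detected named probes. A bound sets the bright group's mean against, per dim array, the lowest detected signal or the probe's own if higher. It holds for the background-corrected values only and carries no interval. Arrays give no read depth, and their number limits precision. The steps were tested on simulated data, with changes placed only in genes brighter in controls than the tested Wnt target genes. Recovery of changes at the signal of the Wnt target genes was not tested.

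Named genes were all 10 Wnt target genes, Chd4, Tcf7l1, Ctnnb1, Wnt3, Znrf3, up to 4 passing genes with the smallest p from each other Wnt list, and the 3 genes most like Sp5; others named were marker genes or list members that did not pass. The members and lists were chosen with earlier results of these data known. Motifs were searched in RefSeq promoter windows.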

Additional observations from a re-analysis of the deposited data

How the results depend on the processing

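No paired analysis was possible because the labels carry no replicate numbers. The results were recomputed with no background correction, median scaling, the authors' values, other detection filters, an offset of 50, array weights, other uses of multiple probes, and each array left out in turn from the normalised values with the same genes tested. Over these 16 alternatives the number of Wnt target genes that rose was 2 to 4 (also 2 to 4 with single arrays left out) and the number that fell was 0. The other Wnt pathway genes had 16 to 24 rises and 5 to 9 falls, 19 to 23 and 5 to 9 with single arrays left out. Of 6 detected probes of the Wnt target genes, 4 passed, and 3 or 4 in each of 14 alternatives. No result changed direction among those that passed. Without the detection filter Notum (adjusted p = 0.0765), Tle1 (0.0709) and Nanog (0.0575) no longer passed, and with the mean of detected probes Tle1 (0.0567) did not; the larger number of genes adjusted over is part of the first setting. Median scaling moved the median of all genes by 0.04 on the log2 scale. Genes close to background, such as Nkd1 and the control level of Cdx1, are limited by signal over background, and Lef1, Rnf43 and Dkk1 could not be compared.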
